A study of Homo sapiens with 18 samples.

Results

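ST6GAL1 and A4GALT encode enzymes that finish the sugar chains shown at the cell surface, and in OCI-AML3 clones labelled as caspase-2 knockouts their mRNA stood on opposite sides of the parental level. They are 2 of the 4816 gene symbols printed in a table of RNA sequencing values. They were chosen by their TPM values in these same libraries, with the low ST6GAL1 level in the OCI-AML3 clones already known. The differences of both genes in that line are given as a description with no test.

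The series compared 2 human acute myeloid leukaemia cell lines, OCI-AML3, whose genotype label is NPM1c+ (mutated nucleophosmin found in the cytoplasm), and OCI-AML2, whose label is NPM1WT. CRISPR/Cas9 was used in both lines against CASP2, which encodes the cell death protease caspase-2. The groups were OCI-AML3 clone 1 and clone 2 (NPM1c+, Caspase-2 KO), OCI-AML3 parental cells (NPM1c+, Caspase-2 WT), OCI-AML2 clone 1 and clone 2 (NPM1WT, Caspase-2 KO) and OCI-AML2 parental cells (NPM1WT, Caspase-2 WT), with 3 libraries each and 18 in all. Each knockout group is a single clone, the cells were untreated, and no label says that the 3 libraries of a group came from separate cultures, so p-values measure only the spread between these libraries. CASP2 mRNA stood at 3 to 5.06 TPM in the OCI-AML2 clones against 35.32 to 37.29 TPM in OCI-AML2 parental cells, and at 26.34 to 35.39 TPM in the OCI-AML3 clones against 28 to 30.11 TPM in OCI-AML3 parental cells. The mRNA level therefore does not check the label of the OCI-AML3 clones.

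TPM, a transcript share per library, scales each gene for its length and each library for its depth, so levels of different genes can be set side by side. The deposited table is a selection of changed genes. Of its lines, 97.5% had a log2 ratio of group means of 0.95 or more in size in the 2 OCI-AML3 clones, in clone 1 of OCI-AML2 or between the untargeted lines. Shares of genes called changed are therefore high for any gene in it, and a call in one of those comparisons partly restates how the gene came into the table. ST6GAL1 was below that size in OCI-AML2 clone 1. Differences below are in log2(TPM + 1), which understates changes of low genes, from a limma model over 4413 distinct sets of values. A gene is called changed in a cell line where both clones passed a Benjamini-Hochberg adjusted p of 0.05 in the same direction. The number of reads behind a value is unknown.

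Sialyltransferases work in the Golgi and cap glycans with sialic acid, a negatively charged sugar. ST6GAL1 is the main enzyme that joins sialic acid in the alpha-2,6 linkage to galactose at the ends of N-glycans, which creates the ligand of the B cell lectin CD22 and hides galactose from galectins. A4GALT, the Gb3 or Pk synthase, adds galactose in the alpha-1,4 linkage to lactosylceramide and so starts the globo-series of glycosphingolipids. Its product Gb3 is CD77, a marker of germinal centre B cells and the receptor of Shiga toxin.

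The stretches of 250 bases before a RefSeq transcript start of each gene (GRCh38.p14, 5′ to 3′ on the strand of the gene) are shown because both genes differed several-fold in level between clones and parental cells of one line. The ST6GAL1 stretch is chr3:186930276-186930525 on the plus strand and the A4GALT stretch is chr22:42720871-42721120 on the minus strand. Capitals mark the GC box GGGCGG and the octamer ATTTGCAT, each searched on both strands with overlaps counted.
ST6GAL1: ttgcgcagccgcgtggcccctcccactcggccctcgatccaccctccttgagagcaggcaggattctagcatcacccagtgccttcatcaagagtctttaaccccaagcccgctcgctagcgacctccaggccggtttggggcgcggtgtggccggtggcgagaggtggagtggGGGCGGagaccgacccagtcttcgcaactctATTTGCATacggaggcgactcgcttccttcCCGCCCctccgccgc
A4GALT: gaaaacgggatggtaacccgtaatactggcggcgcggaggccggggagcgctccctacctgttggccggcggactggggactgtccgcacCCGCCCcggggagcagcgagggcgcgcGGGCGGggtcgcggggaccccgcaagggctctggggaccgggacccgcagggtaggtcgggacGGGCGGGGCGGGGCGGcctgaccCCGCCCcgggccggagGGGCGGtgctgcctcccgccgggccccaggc

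The A4GALT stretch held 33 CpG pairs, more than 91.9% of the 35116 RefSeq stretches of this length, and 7 GC boxes. The ST6GAL1 stretch held 22 CpG pairs, more than 72.0% of these stretches, and 2 GC boxes. It also held 1 octamer, a motif known from B cell promoters that was looked for after the sequence had been read. Of all stretches 42.6% held a GC box and 1.6% the octamer. RefSeq gives A4GALT a second start, whose stretch held 5 CpG pairs, more than 34.3% of the stretches. The A4GALT stretch shown was taken because it is the richer in CpG pairs. The GENCODE 29 basic set lists 3 starts for ST6GAL1 and 4 for A4GALT. The values are per gene, so which start was in use was not measured.

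ST6GAL1 was nearly lost from the OCI-AML3 clones. It stood at 1.08, 1.27 and 1.32 TPM in OCI-AML3 clone 1 and at 1.83, 1.55 and 1.48 TPM in clone 2, against 57.9, 53.19 and 52.47 TPM in OCI-AML3 parental cells. All 6 clone libraries lay far below the lowest parental library, and the ranges of the clones did not overlap each other. The mean was 2.24% of the parental mean in clone 1 and 2.97% in clone 2, a level 44.6-fold and 33.7-fold lower. On the log2(TPM + 1) scale the differences were -4.64 and -4.41 (SE 0.08 each), and their mean was the 7th lowest of the 4413 sets. In bulk RNA, fewer cells with the transcript and less transcript per cell cannot be told apart.

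In the OCI-AML2 clones ST6GAL1 fell as well, and the transcript stayed abundant. Whether the change differs between the lines was not tested. It stood at 47.01, 44.18 and 38.98 TPM in OCI-AML2 clone 1 and at 44.57, 41.33 and 47.85 TPM in clone 2, against 69.64, 70.01 and 69.18 TPM in OCI-AML2 parental cells. Every clone library lay below every parental library, while the ranges of the clones overlapped. The log2 change was -0.67 in clone 1 (SE 0.08, limma adjusted p = 1.1e-06) and -0.63 in clone 2 (SE 0.08, limma adjusted p = 1.6e-06), to 62.3% and 64.0% of the parental mean. Of all sets 20.9% passed as lower in clone 1 and 27.5% in clone 2, so a call alone sets ST6GAL1 little apart in this table. Both comparisons use the same 3 parental libraries.

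The order of the 6 groups by mean ST6GAL1 was OCI-AML2 parental (69.6 ± 0.416 TPM), OCI-AML3 parental (54.5 ± 2.95), OCI-AML2 clone 2 (44.6 ± 3.26), OCI-AML2 clone 1 (43.4 ± 4.07), OCI-AML3 clone 2 (1.62 ± 0.185) and OCI-AML3 clone 1 (1.22 ± 0.127; SD, n = 3 each). Only the neighbours OCI-AML2 clone 2 and clone 1 overlapped in their libraries. OCI-AML3 parental minus OCI-AML2 parental cells was -0.35 on the log2(TPM + 1) scale. That value is a description with no test, because the name of a gene in a single line was accepted only where the parental lines differed little.

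A4GALT showed the reverse picture at a much lower level. It stood at 5.58, 5.37 and 4.8 TPM in OCI-AML3 clone 1 and at 6.54, 6.85 and 5.94 TPM in clone 2, against 0.96, 0.84 and 0.48 TPM in OCI-AML3 parental cells. All clone libraries lay above the parental ones, and clone 2 lay above clone 1. The mean was 6.91-fold the parental mean in clone 1 and 8.48-fold in clone 2. On the log2(TPM + 1) scale the differences were 1.84 and 2.09 (SE 0.09 each), and their mean ranked 148 from the highest of the 4413 sets. In OCI-AML2 the gene was listed at 0 in all 9 libraries, parental and clone, so no fold was formed there or between the parental lines. The SE draws on a spread shared by all groups, to which these libraries add none. It can therefore understate the spread within OCI-AML3. A4GALT passed the minimum of 1 TPM in 3 libraries only through the OCI-AML3 clones.

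**Figure D1:**
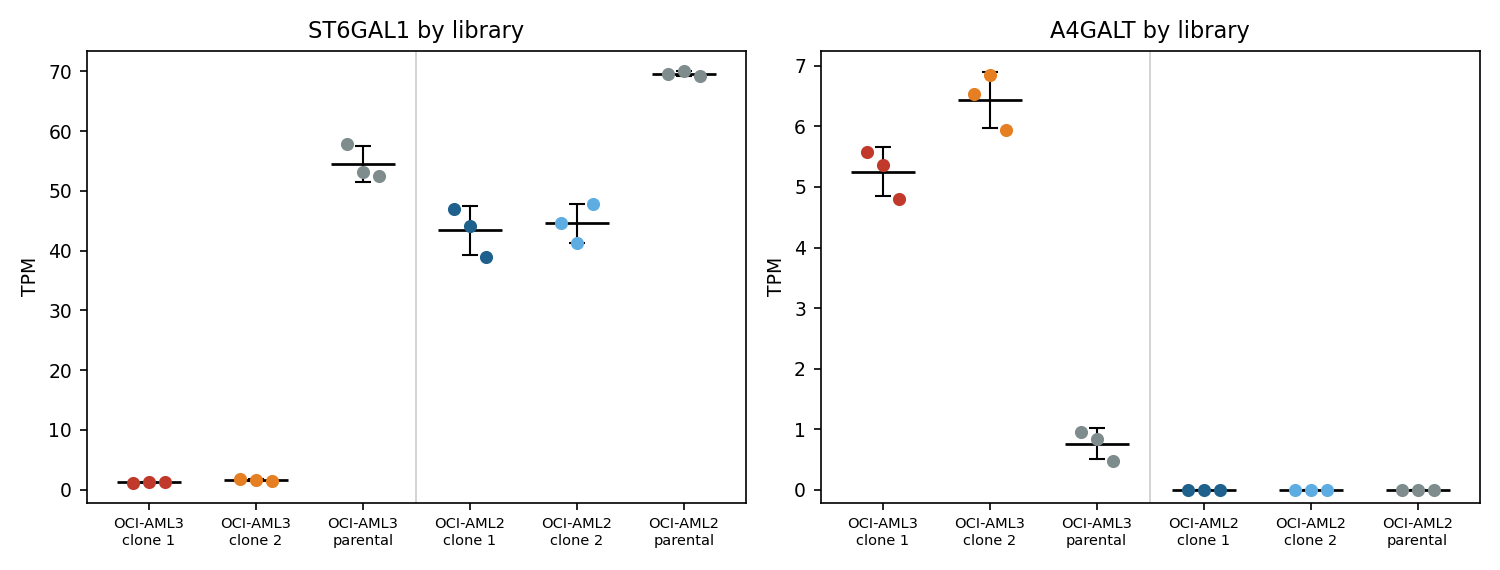
TPM of ST6GAL1 (left) and A4GALT (right) in each library (points), with the mean (bar) and SD (whiskers) of 3 libraries per group. In OCI-AML3, ST6GAL1 is at 1.08 to 1.83 TPM in the clones and 52.47 to 57.9 TPM in parental cells, and A4GALT is at 4.8 to 6.85 TPM in the clones and 0.48 to 0.96 TPM in parental cells.

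The direction for A4GALT rests on which of 2 lines carries its name. The table repeats many sets of values under a second symbol, with the values of OCI-AML3 clone 1 shifted by one replicate, and the line that reads a, b, c was kept where its twin reads b, c, a. The kept A4GALT line reads 5.58, 5.37 and 4.8 in clone 1, and its twin, printed under NXN, reads 5.37, 4.8 and 5.58. The other line printed under A4GALT reads 0.11, 0.24 and 0.18, and its twin under KCNJ11 reads 0.18, 0.11 and 0.24, which gives that set to KCNJ11. The dropped line averaged 0.177 ± 0.0651 TPM in OCI-AML3 clone 1, 0.107 ± 0.0351 in clone 2 and 0.873 ± 0.182 in OCI-AML3 parental cells (SD, n = 3 each). It averaged 4.33 ± 0.42 TPM in OCI-AML2 clone 1, 2.81 ± 0.288 in clone 2 and 4.05 ± 0.597 in OCI-AML2 parental cells. With that line A4GALT would be lower in the OCI-AML3 clones and present in OCI-AML2. ST6GAL1 stands in 1 line without a twin, and the parental lines differ less in it than in any of the 1234 twin lines that were dropped.

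**Figure D2:**
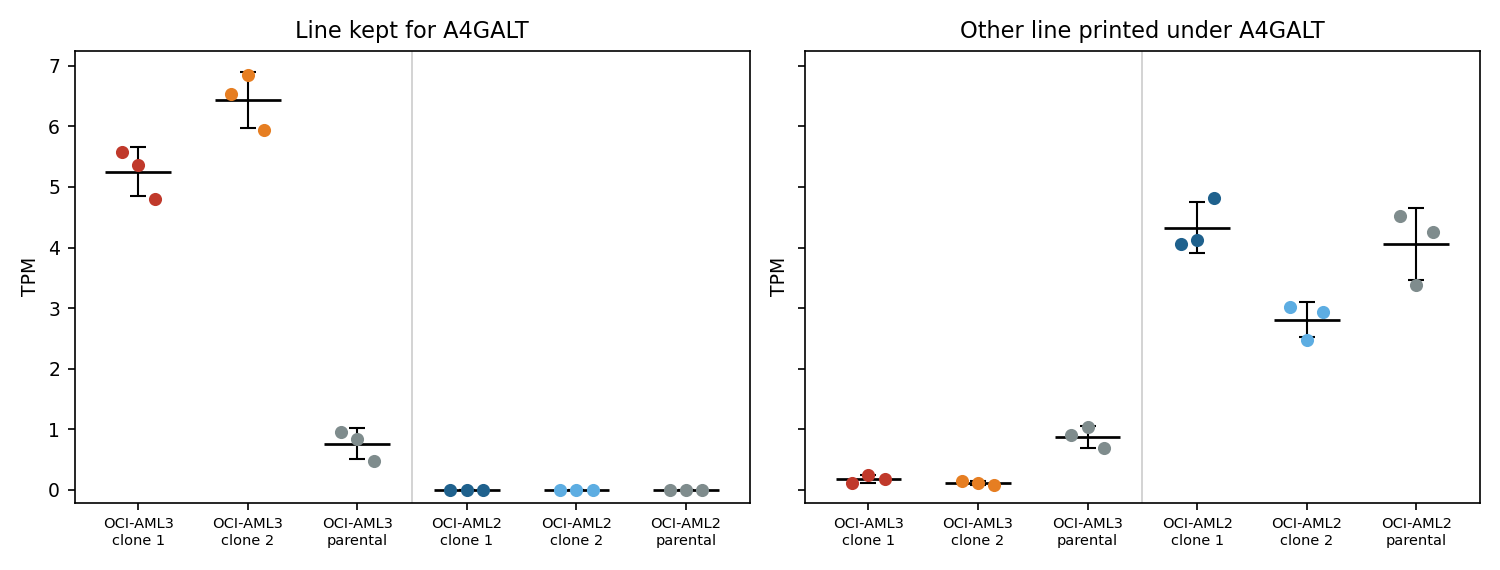
TPM per library (points), mean (bar) and SD (whiskers, n = 3) for the line kept as A4GALT (left) and the other line printed under that symbol (right), on one scale. The kept line is highest in OCI-AML3 clone 2 (6.44 TPM) and listed at 0 in OCI-AML2, while the dropped line is highest in OCI-AML2 clone 1 (4.33 TPM).

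Between the OCI-AML3 clones neither gene passed the test, and between the OCI-AML2 clones ST6GAL1 did not. A4GALT was listed at 0 in both OCI-AML2 clones, so there was nothing to test. In OCI-AML3, clone 2 minus clone 1 was 0.24 for ST6GAL1 (95% interval 0.07 to 0.41, limma adjusted p = 0.0853) and 0.25 for A4GALT (95% interval 0.07 to 0.44, limma adjusted p = 0.0911), although all clone 2 libraries lay above all clone 1 libraries for both. Of all sets 6.82% passed in this comparison. The interval for A4GALT shares its spread with the OCI-AML2 libraries at 0, so it can be too narrow. With only the OCI-AML3 libraries the limma adjusted p was 0.126 for ST6GAL1 and 0.235 for A4GALT. The ST6GAL1 difference passed with a pseudocount of 0.1 TPM (adjusted p = 0.0359), and medians of ratios as the scaling brought both past it (0.0404 for ST6GAL1 and 0.0465 for A4GALT). That for A4GALT also passed without OCI-AML3 parental replicate 3 (adjusted p = 0.0399). In OCI-AML2, clone 2 minus clone 1 was 0.04 for ST6GAL1 (95% interval -0.13 to 0.21, limma adjusted p = 0.730), where 58.9% of all sets passed.

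The other genes of glycan synthesis and recognition were read from lists of 156 genes besides ST6GAL1 and A4GALT, of which 54 are printed in the table, 28 carry a settled symbol and 27 were tested. In OCI-AML3, 6 of the 27 rose and 12 fell in both clones (median log2 change -0.22), where 28.7% of all sets rose and 38.3% fell (median -0.06). In OCI-AML2, 6 rose and 6 fell (median -0.11), where 23.8% of all sets rose and 14.6% fell (median 0.06). These shares are near those of the table, and the lists say nothing of the genes without a settled symbol.

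Of 20 sialyltransferases, 8 are printed and 2 had a settled symbol, ST6GAL1 and ST6GALNAC3, which adds sialic acid to O-glycans and gangliosides. ST6GALNAC3 averaged 2.81 ± 0.342 and 3.03 ± 0.567 TPM in OCI-AML3 clones 1 and 2 against 3.55 ± 0.531 TPM in OCI-AML3 parental cells, and was not called. In OCI-AML2 it fell to 0.487 ± 0.0551 and 0.14 ± 0.0436 TPM in the clones, against 1.24 ± 0.242 TPM in parental cells (log2 change -0.58 and -0.97). Its mean in clone 1 was 0.394 of the parental mean. That is past the size by which genes came into the table, so the values are a description.

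Among genes of sialic acid turnover, 2 of 13 were tested and both fell in OCI-AML3, as did 38.3% of all sets. NEU3, a sialidase of the plasma membrane that acts on gangliosides, stood at 1.57 ± 0.311 and 1.89 ± 0.145 TPM in the clones and 9.79 ± 0.989 TPM in OCI-AML3 parental cells. SIAE, a sialic acid acetylesterase, stood at 6.82 ± 0.8 and 7.2 ± 0.176 TPM in the clones and 24.4 ± 2.05 TPM in parental cells. In OCI-AML2 neither was called in both clones. SIAE there averaged 21.1 TPM in clone 1 and 6.44 TPM in clone 2, on either side of the parental 16.6 TPM.

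Of 27 glycosphingolipid genes 5 were tested. In OCI-AML3 the 1 counted as higher is A4GALT itself and 3 fell, where 28.7% of all sets rose and 38.3% fell. GBGT1, the Forssman synthase gene that stands further down the globo-series and is inactive in its common human form, fell to 134 ± 4.24 and 145 ± 6.62 TPM in the clones, against 383 ± 31.9 TPM in OCI-AML3 parental cells. UGT8, which makes galactosylceramide, fell to 0.447 ± 0.147 and 0.633 ± 0.0569 TPM in the clones, against 4.06 ± 0.404 TPM in parental cells. B3GALT4, which builds the ganglioside GM1, was lower at 0.443 ± 0.145 and 0.853 ± 0.240 TPM in the clones against 1.42 ± 0.327 TPM in parental cells. Its call ended with scaling by medians of ratios (clone 2 adjusted p = 0.0576), without OCI-AML3 parental replicate 3 (0.0863) and without clone 2 replicate 2 (0.0805). In OCI-AML2, GAL3ST1, the sulfotransferase of sulfatide synthesis, fell to 1.61 ± 0.380 TPM in clone 1 and 0.05 ± 0.0866 TPM in clone 2, against 3.37 ± 0.239 TPM in parental cells.

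N-glycan genes, which build the branches that ST6GAL1 caps, had 4 of 8 tested members higher and 2 lower in OCI-AML3, where 28.7% of all sets were higher and 38.3% lower. B3GNT8, which extends branches with poly-N-acetyllactosamine, rose to 3.64 ± 0.512 and 5.32 ± 0.786 TPM in the clones, against 0.0567 ± 0.0513 TPM in OCI-AML3 parental cells. MGAT4A, a branching N-acetylglucosaminyltransferase, rose to 12.5 ± 0.575 and 10.1 ± 1.04 TPM in the clones, against 1.67 ± 0.523 TPM in parental cells. MAN2A2, a Golgi mannosidase, rose to 52.7 ± 0.923 and 61.9 ± 3.87 TPM in the clones, against 24.6 ± 0.248 TPM in parental cells, while MGAT5, which starts the beta-1,6 branch, fell to 7.71 ± 0.231 and 8.64 ± 0.157 TPM, against 18.7 ± 0.543 TPM in parental cells.

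In OCI-AML2, 1 of the same 8 N-glycan genes was higher and 2 were lower, beside 23.8% and 14.6% of all sets. MGAT3, which adds the bisecting N-acetylglucosamine, rose to 3.75 ± 0.384 and 3.07 ± 0.363 TPM in the clones, against 0.627 ± 0.226 TPM in OCI-AML2 parental cells. The mannosidase gene MAN1A1 fell to 2.26 ± 0.103 and 2.96 ± 0.367 TPM in the clones, against 14.9 ± 1.39 TPM in parental cells. B3GNT8 was lower there at 30.1 ± 5.17 and 25.1 ± 3.03 TPM in the clones against 38.3 ± 3.43 TPM in parental cells. That call ended in clone 1 with a pseudocount of 0.1 TPM (adjusted p = 0.165), with only the libraries of the line (0.0696) and without parental replicate 1 (0.112) or clone 1 replicate 3 (0.164).

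O-glycan genes had 1 of 6 tested members higher and 3 lower in OCI-AML3, and 3 higher and 1 lower in OCI-AML2. Of all sets, 28.7% were higher and 38.3% lower in OCI-AML3, and 23.8% higher and 14.6% lower in OCI-AML2. C1GALT1, the core 1 synthase, rose in both lines, to 7.85 ± 0.512 and 6.66 ± 0.547 TPM in the OCI-AML3 clones against 3.53 ± 0.473 TPM in OCI-AML3 parental cells, and to 18.2 ± 2.43 and 25.3 ± 5.04 TPM in the OCI-AML2 clones against 8.72 ± 1.06 TPM in OCI-AML2 parental cells. Of the 4 tested enzymes that start O-GalNAc chains, 3 were lower in OCI-AML3. GALNT11 was not called there, at 40.1 and 39.0 TPM in the clones against 44.1 TPM in parental cells, and was the most abundant of them. GALNT12 averaged 1.10 and 0.73 TPM in the OCI-AML3 clones against 5.34 TPM in parental cells, GALNT6 averaged 1.33 and 1.23 TPM against 5.97 TPM, and GALNT3 averaged 0.08 and 0.15 TPM against 0.783 TPM. In OCI-AML2, GALNT3 rose to 5.88 ± 0.860 and 6.91 ± 1.13 TPM in the clones, against 2.59 ± 0.255 TPM in parental cells. B3GNT7, which extends poly-N-acetyllactosamine chains, rose to 26.1 ± 2.30 and 30.4 ± 1.80 TPM in the OCI-AML2 clones, against 4.3 ± 0.249 TPM in parental cells. GALNT11 was listed at 0 in the 6 OCI-AML2 clone libraries, against 7.72 ± 1.26 TPM in parental cells. Of 12 fucosyltransferases FUT11 alone was tested, and it fell in OCI-AML2 to 6.77 ± 0.858 and 7.81 ± 0.261 TPM in the clones, against 13.9 ± 0.642 TPM in parental cells.

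**Figure D3:**
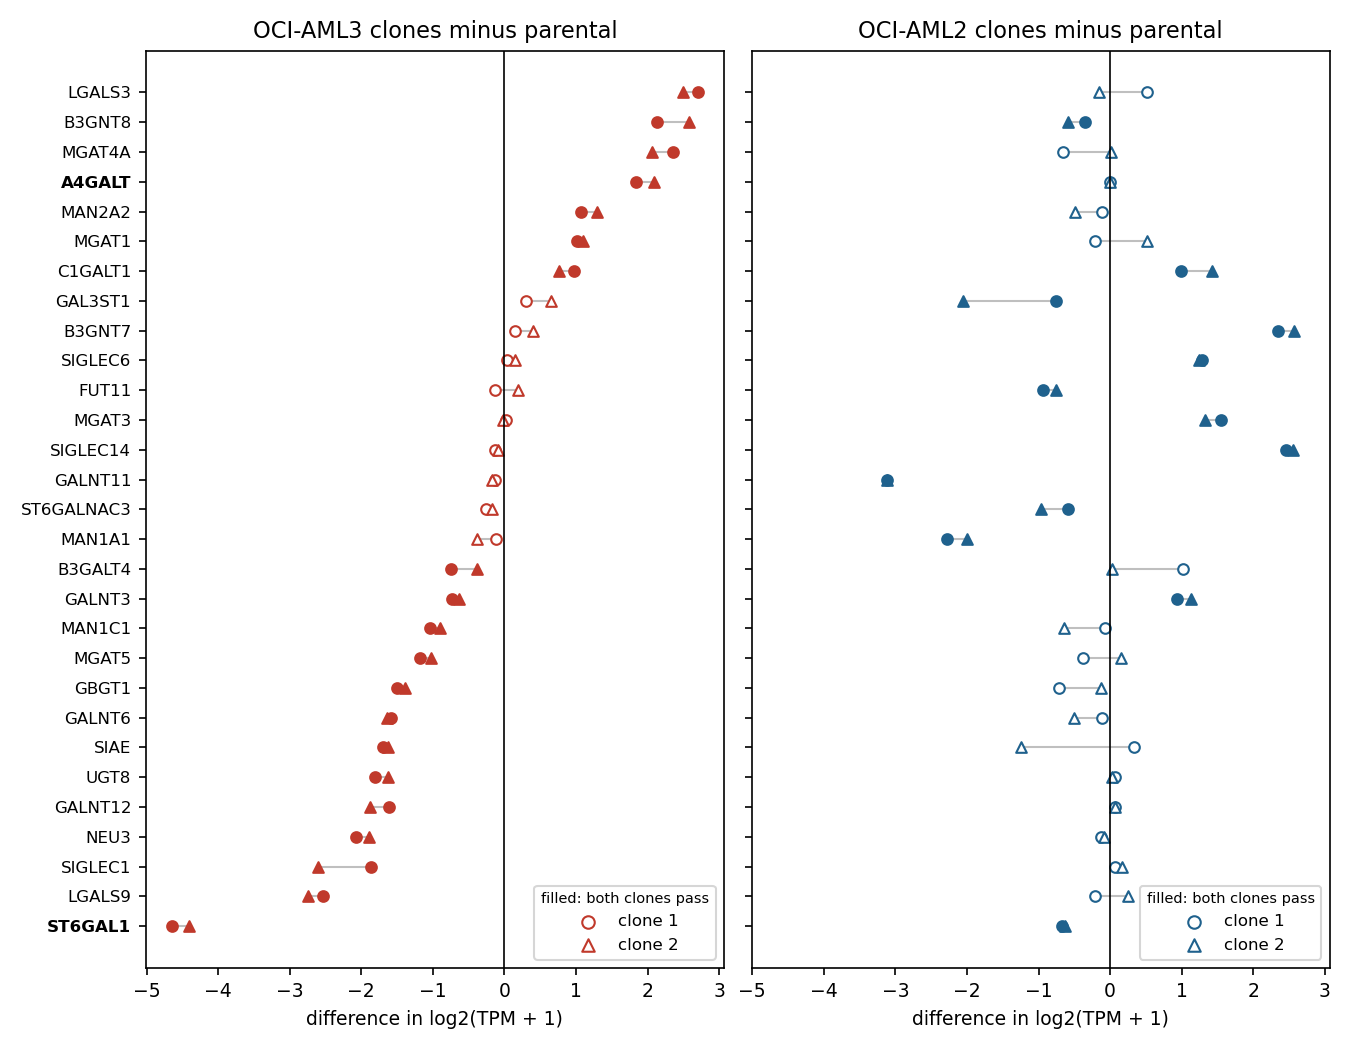
Difference in log2(TPM + 1) between clone and parental cells for ST6GAL1, A4GALT (bold) and the 27 other tested glycan genes, in OCI-AML3 (left) and OCI-AML2 (right). Circles are clone 1, triangles clone 2, and filled symbols mark genes that passed in the same direction in both clones. ST6GAL1 lies lowest in OCI-AML3 at -4.64 and -4.41 and near -0.65 in OCI-AML2.

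Lectins that read the sugars made or hidden by ST6GAL1 were few in the table. SIGLEC1, sialoadhesin, a macrophage receptor for sialic acid, fell to 11.2 ± 0.932 and 6.26 ± 0.562 TPM in the OCI-AML3 clones, against 43.3 ± 2.68 TPM in OCI-AML3 parental cells. It was the 1 called of 3 tested sialic acid-binding lectins there, where 38.3% of all sets fell. In OCI-AML2, SIGLEC6 and SIGLEC14 rose, SIGLEC14 to 15.9 ± 2.92 and 17 ± 1.22 TPM in the clones, against 2.1 ± 0.652 TPM in parental cells, and SIGLEC6 to 1.86 ± 0.575 and 1.75 ± 0.256 TPM, against 0.167 ± 0.0569 TPM. Of all sets 23.8% rose in OCI-AML2. SIGLEC14 is nearly identical to SIGLEC5 over part of its length, so its reads may be split. Galectins bind galactose that lacks an alpha-2,6 sialic acid. LGALS3 rose to 68.4 ± 2.14 and 59.3 ± 3.79 TPM in the OCI-AML3 clones, against 9.89 ± 2.67 TPM in parental cells. LGALS9, which shares sequence with the copies LGALS9B and LGALS9C, fell to 28.8 ± 2.03 and 24.7 ± 2.21 TPM in the OCI-AML3 clones, against 171 ± 14.3 TPM in parental cells. Neither galectin was called in OCI-AML2. Of 9 listed glycoprotein substrates and proteases of ST6GAL1, 3 are printed and 0 had a settled symbol.

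The genes most like ST6GAL1 in pattern, by Pearson correlation of log2(TPM + 1) over the 18 libraries among 2084 tested sets with a settled symbol, were PAM (r = 0.994), GPR63 (0.994), PODXL (0.993), SEMA4A (0.993) and PROCR (0.992). The 18 points fall into the same 6 groups for every gene, so these values describe the shape only. PAM, an enzyme that amidates peptides, stood at 0.777 ± 0.111 and 0.803 ± 0.0513 TPM in the OCI-AML3 clones, against 22.6 ± 1.90 TPM in OCI-AML3 parental cells. PODXL, podocalyxin, a heavily sialylated surface mucin, stood at 0.693 ± 0.0808 and 0.67 ± 0.210 TPM in the OCI-AML3 clones, against 8.31 ± 0.713 TPM in parental cells. SEMA4A, a semaphorin, averaged 7 and 8.82 TPM against 68.4 TPM, and PROCR, the endothelial protein C receptor, 6.51 and 6.69 TPM against 86.5 TPM. In OCI-AML2, PAM averaged 17.7 and 16.8 TPM in the clones against 19.4 TPM in parental cells. PROCR was the only one of the 5 called in both OCI-AML2 clones, where it averaged 80.6 and 59.9 TPM against 113 TPM in parental cells.

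For A4GALT the same rule gave PTGER3 (r = 0.996), PDGFA (0.995), PDE9A (0.993), MFAP3L (0.992) and IGFBP3 (0.992). PTGER3, a receptor for prostaglandin E2, came closest in level too, at 4.83 ± 0.529 and 4.87 ± 0.301 TPM in the OCI-AML3 clones, against 0.803 ± 0.0907 TPM in OCI-AML3 parental cells, and was listed at 0 in OCI-AML2. PDGFA, a platelet-derived growth factor chain, reached 25.7 ± 1.20 and 26.5 ± 1.15 TPM in the OCI-AML3 clones, against 1.39 ± 0.0173 TPM in parental cells. PDE9A, a phosphodiesterase of cyclic GMP, reached 38.9 ± 3.81 and 41.2 ± 2.14 TPM, against 1.35 ± 0.248 TPM. IGFBP3, which binds insulin-like growth factors, was the highest of the 5 in the OCI-AML3 clones at 314 and 225 TPM. Over the 6 group means instead of the libraries, 3 of these 5 genes remained among the nearest 5, and all 5 of those for ST6GAL1.

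**Figure D4:**
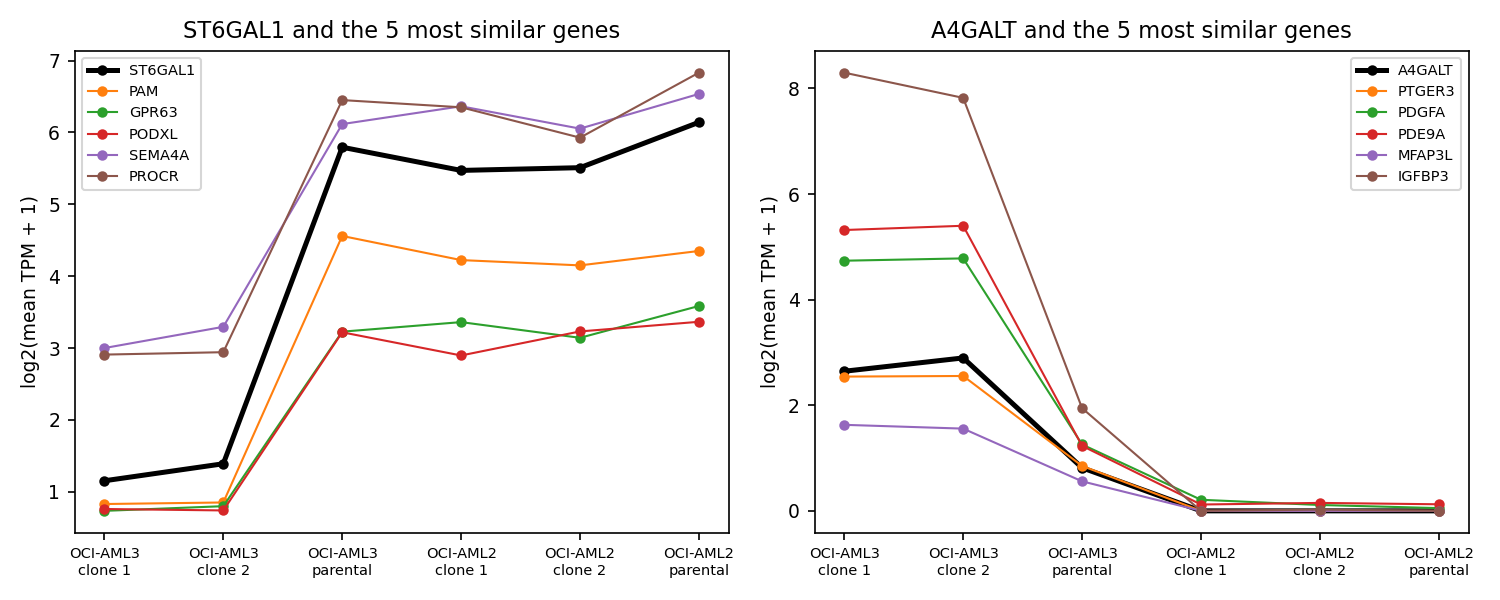
log2(mean TPM + 1) in each of the 6 groups for ST6GAL1 (left) and A4GALT (right), in black, with the 5 genes of most similar pattern in colour; lines only join the points of a gene. The ST6GAL1 group is low in both OCI-AML3 clones alone, and the A4GALT group is high in them and near 0 in OCI-AML2.

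On the chromosome the nearest listed genes around either one did not all share one direction in OCI-AML3, while those called in OCI-AML2 were all higher. They were taken by order among listed genes, and their distances were not measured. The 3 nearest genes of the table with a settled symbol on each side of ST6GAL1 in RefSeq order were EHHADH, DGKG and CRYGS before it and RPL39L, CLDN16 and IL1RAP after it. In OCI-AML3, 2 of these 6 rose, 3 fell and 1 was not called, where 28.7% of all sets rose and 38.3% fell. CRYGS, a crystallin gene, averaged 7.8 and 7.77 TPM in the OCI-AML3 clones against 3.17 TPM in parental cells, and RPL39L, a ribosomal protein gene, 17.1 and 13.7 TPM against 46.5 TPM. Around A4GALT stood MEI1, CYP2D7 and SERHL2 before it and PHF21B, WNT7B and CELSR1 after it. Of these 1 rose and 5 fell in OCI-AML3, against the same shares of all sets, with the Wnt ligand gene WNT7B at 0.11 and 0.207 TPM in the clones against 3.72 TPM in OCI-AML3 parental cells. CYP2D7 and SERHL2 have close copies beside them, so their reads may be split. In OCI-AML2, 3 of the 6 genes around ST6GAL1 rose and 0 fell, and 2 of the 6 around A4GALT rose and 0 fell, where 23.8% of all sets rose and 14.6% fell.

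Markers of cell types were sparse in the table, which limits the check of the labels. Of 10 myeloid markers 6 are printed and 3 had a settled symbol. CD68 averaged 188 and 216 TPM in the OCI-AML3 clones against 823 TPM in OCI-AML3 parental cells, and ANPEP (CD13) 58.7 and 67 TPM against 29.9 TPM. In OCI-AML2, CD68 averaged 706 and 574 TPM in the clones against 706 TPM in parental cells. ITGAM (CD11b) rose there to 1.39 and 1.38 TPM in the clones, against 0.283 TPM in parental cells. In OCI-AML3 it averaged 0.02 and 0.0533 TPM in the clones against 0.2 TPM in parental cells. ST6GAL1 and A4GALT are both known from B cells. Of 7 B cell markers 3 are printed and PAX5 alone had a settled symbol, at 0.18 and 0.113 TPM in the OCI-AML3 clones against 0.433 TPM in OCI-AML3 parental cells, and at 4.03 and 1.99 TPM in the OCI-AML2 clones against 1.75 TPM in OCI-AML2 parental cells. The T cell gene CD3D rose to 1.33 and 1.37 TPM in the OCI-AML2 clones, against 0 in all 3 OCI-AML2 parental libraries, and was listed at 0 throughout OCI-AML3. The fibroblast collagen gene COL1A2 averaged 3.27 and 1.95 TPM in the OCI-AML3 clones against 0.137 TPM in parental cells. No erythroid and no epithelial marker had a settled symbol. The part of these differences in the levels of ST6GAL1 and A4GALT was not tested.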

How the data were processed

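The values are TPM per gene and library as deposited by the authors, per the file headers. Alignment, read counting, the build and its annotation are steps not given in the sources used here. All 18 value columns matched a sample title. The table holds 6999 lines and 5069 distinct sets of 18 values, which sum to 170140 to 199403 TPM per library. Depth per library is unknown, so no counting interval is given. A symbol was settled for 1234 sets by the replicate order of OCI-AML3 clone 1, for 413 repeated under 1 symbol and for 673 single lines with a parental log2 ratio under 0.6 in size, 2320 in all. No symbol was settled for more than one set. A model of 1 mean per group with an intensity trend was fitted to log2(TPM + 1) of all 18 libraries (limma 3.58.1, R 4.3.3). It covered the 4413 sets that reached 1 TPM in 3 or more libraries. P-values are two-sided and Benjamini-Hochberg adjusted over these sets. The fit was tested on simulated data. ST6GAL1, A4GALT and all gene lists were chosen with earlier results of these data known. Named are these 2 genes, CASP2, up to 4 called genes per list and line, the 5 nearest patterns and 3 listed neighbours per side. Marker genes and genes that were tested but not called are given in addition. Alternatives were the pseudocount, the minimum TPM, rescaling, a replicate block, fewer libraries and, added after seeing the data, the other A4GALT line.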

Additional observations from a re-analysis of the deposited data

Results flagged for a closer look

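In 7 of the named genes every clone library moved one way against parental cells in OCI-AML3 and the opposite way in OCI-AML2. The share of all sets that did so was not counted, so whether 7 is many for this table is unknown. The difference between the lines was not tested in any of the 7 genes. Given as the mean log2 change of the OCI-AML3 clones minus that of the OCI-AML2 clones, it was 2.82 for B3GNT8 (2.35 against -0.47) and -1.71 for GALNT3 (-0.68 against 1.03). It was -1.10 for ITGAM, an integrin chain of myeloid cells, and -0.82 for PAX5, which was not called in OCI-AML2. Among the nearest listed genes around ST6GAL1 it was -0.999 for DGKG and -1.81 for IL1RAP, and among those around A4GALT it was -2.34 for CELSR1. GALNT3, ITGAM, PAX5 and DGKG stood below 1 TPM in all OCI-AML3 libraries.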

How the results depend on the processing

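Apart from the other A4GALT line, 24 alternatives were run for each change and count. ST6GAL1 in OCI-AML2 clone 1 and clone 2 passed in all of them, with adjusted p at most 0.000203 and 0.000201. With a pseudocount of 0.1 TPM, ST6GAL1 in OCI-AML3 clone 1 and clone 2 was -5.37 and -4.99, and A4GALT was 2.68 and 2.97. A4GALT between the parental lines was then 3.06, against 0.81 on the log2(TPM + 1) scale. With A4GALT listed at 0 in OCI-AML2, the size of that difference follows the pseudocount. Rescaling by medians of ratios, which lowered OCI-AML3 parental libraries by a log2 shift of -0.151 to -0.181, gave -4.49 and -4.24 for ST6GAL1 in OCI-AML3. For OCI-AML3 clone 2 minus clone 1, ST6GAL1 became 0.38 with the lower pseudocount and 0.25 after rescaling, and A4GALT 0.27 after rescaling; their adjusted p ranged over 0.0359 to 0.260 and 0.0399 to 0.358. Leaving out each replicate, A4GALT ranged over 1.72 to 1.92 in OCI-AML3 clone 1, 1.97 to 2.17 in clone 2, 0.72 to 0.93 between the parental lines and 0.20 to 0.30 for clone 2 minus clone 1. ST6GAL1 in OCI-AML2 clone 2 minus clone 1 ranged over -0.033 to 0.10 and so changed sign, never passing. With the other A4GALT line, chosen as an alternative after seeing the data, the values were -0.67 and -0.76 in OCI-AML3 clone 1 and clone 2, -1.43 between the parental lines, -0.087 for OCI-AML3 clone 2 minus clone 1, -0.40 in OCI-AML2 clone 2 and -0.48 for OCI-AML2 clone 2 minus clone 1. The number of sets that differed between the OCI-AML3 clones, 301, was 166 with the lower pseudocount, 194 with only the libraries compared and 102 to 369 without single replicates (in OCI-AML3 102 and 171 without clone 2 replicates 2 and 1, and 143, 182 and 179 without clone 1 replicates 1, 2 and 3). The cause of these shifts was not tested. Apart from them, no count over all sets or over the 27 other tested glycan genes moved by over 1.5 times. Smaller counts, such as those of single lists, did move in some alternatives. Taken with the group levels and nearest patterns of ST6GAL1 and A4GALT, and with the other A4GALT line included, 24 such values moved. The 2 N-glycan genes lower in OCI-AML2, for example, include B3GNT8, whose call ended in some alternatives.

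The replicate numbers did not pair the libraries, since the deviations of same-numbered libraries correlated over 0.1 in 2 of 18 pairs (range -0.343 to 0.177). With a replicate block no call changed for either gene. ST6GAL1 then had adjusted p = 3.96e-06 and 5.34e-06 in OCI-AML2 clone 1 and clone 2, and 241 sets differed between the OCI-AML3 clones.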
